A study of Mus musculus with 40 samples.

Results

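The genes of the cholinergic neuron, which make, package and break down acetylcholine, take up its choline or direct the formation of the cell, were examined in mouse forebrain. They were Chat, Slc18a3, Slc5a7, Ache and Lhx8, chosen by symbol. The rule used no measured value, but earlier results of these data were known when the choice was made. These 5 genes were found among 41388 features in the deposited counts, and all 5 passed the filter on low counts in every fit. Their counts were followed through 40 libraries, from 2 mouse lines, 4 fractions and 5 replicates of each.

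Acetylcholine is made from choline and acetyl-CoA by choline acetyltransferase (Chat), loaded into synaptic vesicles by the vesicular acetylcholine transporter (Slc18a3) and, after release, split by acetylcholinesterase (Ache). The choline is brought back into the terminal by the high-affinity choline transporter (Slc5a7), whose presence sets much of the pace of synthesis. Lhx8 is a LIM homeodomain transcription factor needed for the formation of cholinergic neurons of the striatum and basal forebrain. These cells are few in the forebrain, as scattered interneurons of the striatum and projection neurons of the basal forebrain, and some bipolar interneurons of the cortex also express Chat. Ache is the least specific of the set, since many neurons that receive acetylcholine express it as well.

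The mice carried a Cre-dependent reporter of EGFP fused to the ribosomal protein Rpl10a, turned on by Tg(RBP4-cre)KL100Gsat/Mmcd in layer 5 pyramidal neurons (RBP4-TRAP) or by Slc32a1tm2(cre)Lowl/J in neurons that express the vesicular GABA transporter (VGAT-TRAP), and were 21 d old. Each replicate was a pool of 2 to 3 forebrains of both sexes, given as cortex in the labels, and 4 samples came from it: total RNA of the homogenate (WCH), RNA captured on tagged ribosomes (TRAP), RNA of the synaptoneurosome fraction (SNF), and RNA captured on tagged ribosomes from that fraction (ST). The Cre drivers mark cells by the history of the promoter, so that a cell which once expressed Slc32a1 stays tagged. Neither driver is specific for cholinergic neurons.

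Libraries held between 14259535 and 22037703 counts, with a median of 17143957, and 1 count was worth between 0.0455 and 0.112 cpm, the count scaled to a library of fixed size with mitochondrial genes, rRNA and tRNA set aside. The lines were as labelled in TRAP: Slc32a1 ran from 48.4 to 77.2 cpm in VGAT TRAP but only from 1.49 to 4.99 cpm in RBP4 TRAP. RBP4 ST replicate 4 stood apart in Slc32a1, at 49.9 cpm where the other 4 libraries of RBP4 ST had 10.9 to 19.7 cpm. It did not in Gad1, another GABAergic marker, at 171 cpm against 118 to 201 cpm. Gad2, a further one, lay between 66.4 and 98.8 cpm over all RBP4 ST libraries. Results that rest on RBP4 ST replicate 4 are given with and without it where they change. SNF replicate 3 of both lines also stood apart, with 40.2% (RBP4) and 41.9% (VGAT) mitochondrial counts against 11.2% to 19.4% in the other SNF libraries. Among the RBP4 TRAP libraries, replicate 5 held the most Gad1, the GABA-synthesizing enzyme, at 331 cpm against 58.3 to 95.01 cpm. Among the VGAT TRAP libraries, replicate 3 held the most Slc17a7, a vesicular glutamate transporter, at 155 cpm against 24.6 to 48.8 cpm. That library also had the lowest Gad1 (2016 cpm), Chat and Slc18a3 of VGAT TRAP. Markers of striatal projection neurons were present although the label says cortex, with all 7 detected and a summed level between 468 and 910 cpm in WCH. The motor neuron marker Mnx1 had 0 counts in all 40 libraries.

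Chat and Slc18a3 form 1 locus (GRCm38), and their sequences are shown because the pair share a region while their mRNAs moved apart in the fractions below. The Chat gene lies at chr14:32408203-32465909 on the minus strand, with 16 exons and 2810 exonic bases. The single exon of Slc18a3, at chr14:32462438-32464850 and 2413 bases long, lies on the same strand within the intron between Chat exons 1 and 2, and the annotated exons share 0 bases. The antisense gene Gm2990 also overlaps the Chat gene, again with 0 shared exonic bases. Slc5a7 is at chr17:54273594-54299034 on the minus strand (5176 exonic bases), Ache at chr5:137287519-137294466 on the plus strand (4623) and Lhx8 at chr3:154306294-154330561 on the minus strand (2434). Ache shares 98 exonic bases with Gm42456, a long noncoding RNA on the other strand, and since the library kit keeps no strand, reads from these bases cannot be told apart.

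The 250 bases before the start site of each of the pair (RefSeq, GRCm38.p6) follow, 5′ to 3′ on the minus strand, at chr14:32465910-32466159 for Chat and, inside the Chat intron, at chr14:32464851-32465100 for Slc18a3. In GENCODE M21 the Chat gene reaches to 32465989, which lies inside the Chat window. Capitals mark matches, on either strand, to TGACG (a cAMP response half-site) or GGGCGG (a GC box), and neither window held TAATTA (a homeodomain core), the other motif searched.
Chat: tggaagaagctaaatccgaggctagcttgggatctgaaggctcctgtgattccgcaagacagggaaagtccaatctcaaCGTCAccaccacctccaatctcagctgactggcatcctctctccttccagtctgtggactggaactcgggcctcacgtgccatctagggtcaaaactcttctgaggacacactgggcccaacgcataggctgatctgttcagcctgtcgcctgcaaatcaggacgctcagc
Slc18a3: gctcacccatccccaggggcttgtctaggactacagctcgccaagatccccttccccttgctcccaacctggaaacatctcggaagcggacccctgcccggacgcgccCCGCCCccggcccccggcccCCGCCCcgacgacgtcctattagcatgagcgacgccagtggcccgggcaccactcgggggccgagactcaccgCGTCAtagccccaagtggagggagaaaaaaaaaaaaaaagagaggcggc
Each window held 1 match to TGACG, which is present in 17.8% of 32851 windows of the same length before annotated start sites. The GC box was matched 2 times before Slc18a3 and 0 times before Chat, against 32.7% of windows with a match, and TAATTA is in 4.84% of them. The Slc18a3 window was 66.0% G and C and the Chat window 54.8%. A match is a description of these letters and not a site of binding.

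Per length of exon, Ache was the highest of the 5 genes in each of the 8 groups, with 2.56 ± 0.229 cpm per kb (SD, n = 5) in VGAT WCH and 9.54 ± 1.71 in VGAT TRAP. In VGAT WCH, Chat (1.33 ± 0.637 cpm per kb) came next, followed by Slc5a7 (0.869 ± 0.112), Slc18a3 (0.804 ± 0.198) and Lhx8 (0.397 ± 0.268). Apart from Ache, neighbours in this order lay within the sum of their SDs. In VGAT SNF the order was another, with Slc5a7 (2.01 ± 0.836) and Slc18a3 (1.91 ± 0.984) above Chat (0.686 ± 0.176). In VGAT TRAP, Slc18a3 (3.37 ± 1.16) and Chat (2.67 ± 0.816) were above Slc5a7 (1.06 ± 0.148). The level of Lhx8 in VGAT TRAP, 2.04 ± 1.91 cpm per kb, had an SD close to its mean.

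**Figure D1:**
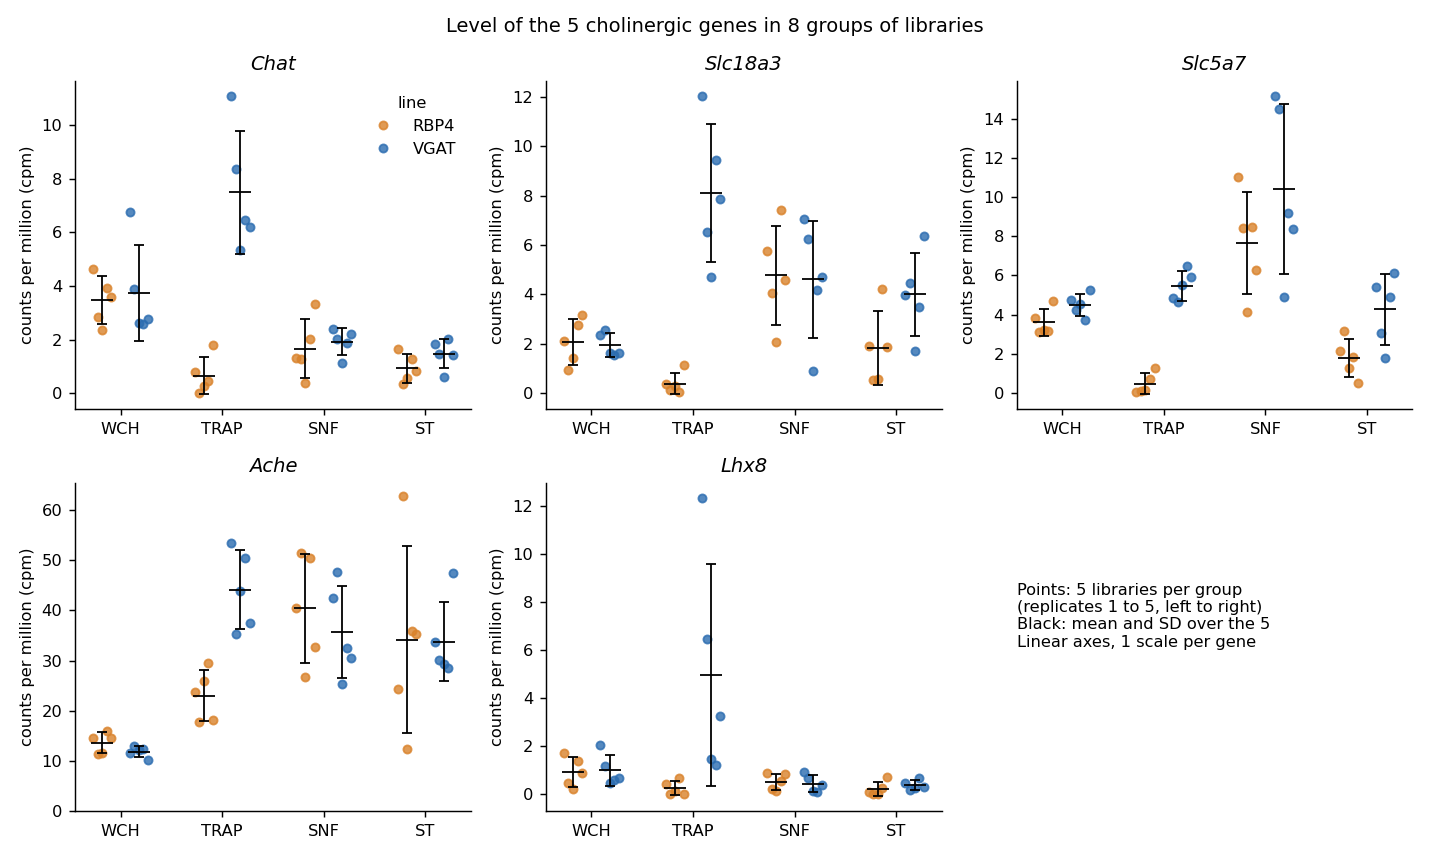
Level in cpm (linear axes, 1 scale per gene) of Chat, Slc18a3, Slc5a7, Ache and Lhx8 in WCH, TRAP, SNF and ST of the RBP4 (orange) and VGAT (blue) lines; points are the 5 libraries of a group and black bars the mean and SD. The lines are apart in TRAP for each gene, while in WCH and SNF their points overlap for each.

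In total RNA no difference between the lines was detected in these genes. Chat was at 4.65, 2.86, 2.37, 3.93 and 3.58 cpm in replicates 1 to 5 of RBP4 WCH and at 6.78, 3.88, 2.62, 2.57 and 2.77 cpm in VGAT WCH. The groups overlapped, and the highest library was VGAT replicate 1. With edgeR's quasi-likelihood test, which was used for all fitted differences and adjusted by Benjamini-Hochberg over all genes tested, 0 of the 5 genes differed between the lines in WCH, and 0 at an unadjusted p under 0.05 or with DESeq2. Over all genes 0.0118% were called in this comparison. The log2 difference of VGAT over RBP4 was 0.10 for Chat, with a 95% interval from -0.82 to 1.01, so that a doubling could not have been told from no difference. For Ache, with more counts, it was -0.20 (-0.69 to 0.29).

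The first question was whether the genes are enriched on the tagged ribosomes of GABAergic neurons. In VGAT TRAP against WCH 4 of the 5 genes rose: Chat, Slc18a3, Ache and Lhx8. The paper, on the same libraries, had already named Chat and Slc18a3 among the markers enriched in VGAT-TRAP samples. Of all genes, 21% rose and 41.8% fell in this comparison. Because scaling to library size moved the median of all genes to -0.31, differences relative to that median are also given, and with TMM factors, which bring the median to -0.06, 4987 genes rose and 5530 fell against 3561 and 7106 without them.

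Chat, the synthetic enzyme, was at 11.1, 8.38, 5.36, 6.45 and 6.22 cpm in VGAT TRAP, and was higher than in WCH in 5 of 5 pools. The groups overlapped only through WCH replicate 1. The log2 fold change was 1.01 ± 0.30 (SE; edgeR adjusted p = 0.00545), which is 1.32 above the median change of all genes. The call was lost when all 40 libraries were in 1 fit (adjusted p = 0.0571). For Slc18a3, the vesicular transporter, VGAT TRAP held 12.1, 6.54, 4.72, 9.46 and 7.87 cpm and WCH 2.34, 2.57, 1.64, 1.53 and 1.63 cpm. Each TRAP library lay above each WCH library, at 4.17-fold (log2 2.06 ± 0.38, adjusted p = 7.97e-05).

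Slc5a7, the choline transporter, was the exception. It was at 4.85, 4.64, 5.48, 6.50 and 5.93 cpm in VGAT TRAP and at 4.75, 4.22, 4.52, 3.73 and 5.27 cpm in WCH. Each pool was higher in TRAP, 5 of 5, but the groups overlapped and the log2 difference was 0.29 ± 0.28 (adjusted p = 0.385), with a 95% interval from -0.27 to 0.84, so that an enrichment as large as that of Slc18a3 lies outside the interval. It lay 0.60 above the median of all genes, and was called in 0 of 7 fits with other settings and 0 of 5 without a pool.

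Ache, the degrading enzyme, was at 53.5, 35.4, 43.8, 50.4 and 37.5 cpm in VGAT TRAP, while WCH ranged from 10.2 to 13.0 cpm. No library of either group came near the other, and the log2 fold change was 1.90 ± 0.18 (adjusted p = 2.21e-08). Lhx8, the transcription factor, was at 12.4, 6.48, 1.47, 1.22 and 3.26 cpm in VGAT TRAP and at 2.03, 1.14, 0.458, 0.550 and 0.652 cpm in WCH. It was higher in TRAP in each pool, at 5.07-fold (log2 2.34 ± 0.58, adjusted p = 0.00152), but spread more than 10-fold between pools.

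On the tagged ribosomes of layer 5 neurons the same genes were low. In RBP4 TRAP against WCH Chat, Slc18a3 and Slc5a7 fell and Ache rose, where 31.5% of all genes fell and 8.37% rose (with TMM factors, 3815 fell and 3296 rose, and the median of all genes went from -0.34 to -0.05). In bulk RNA, fewer cells of a type and less RNA per cell cannot be told apart. Chat was at 0.775, 0, 0.259, 0.455 and 1.79 cpm in RBP4 TRAP, a log2 change of -2.41 ± 0.63 (adjusted p = 0.00446), and each library lay below those of WCH. Slc18a3 was at 0.358, 0.0990, 0.259, 0.0455 and 1.12 cpm, against 0.933 to 3.15 cpm in WCH (log2 -2.47 ± 0.64, adjusted p = 0.00415). Slc5a7 fell from between 3.11 and 4.69 cpm in WCH to 0.0596, 0.0990, 0.156, 0.728 and 1.29 cpm, or 7.61-fold (log2 -2.93 ± 0.55, adjusted p = 0.000261).

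The highest RBP4 TRAP value of Chat, Slc18a3 and Slc5a7 was each time that of replicate 5, the library with the most Gad1. Without this pool the log2 changes were -3.21, -3.24 and -3.57, larger than with it. Ache rose from between 11.3 and 15.9 cpm in WCH to 23.8, 17.7, 25.8, 29.4 and 18.2 cpm in RBP4 TRAP. It did so in 5 of 5 pools without overlap (log2 0.76 ± 0.29, adjusted p = 0.0409), a call that was lost without replicate 1, 3 or 4 (adjusted p up to 0.123). Lhx8 was at 0 counts in 2 of the RBP4 TRAP libraries and at 3 counts or fewer in 3. Its log2 difference of -1.91 ± 0.90 did not pass (adjusted p = 0.0937), but did with a block for the pool (-2.02, adjusted p = 0.0306).

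**Figure D2:**
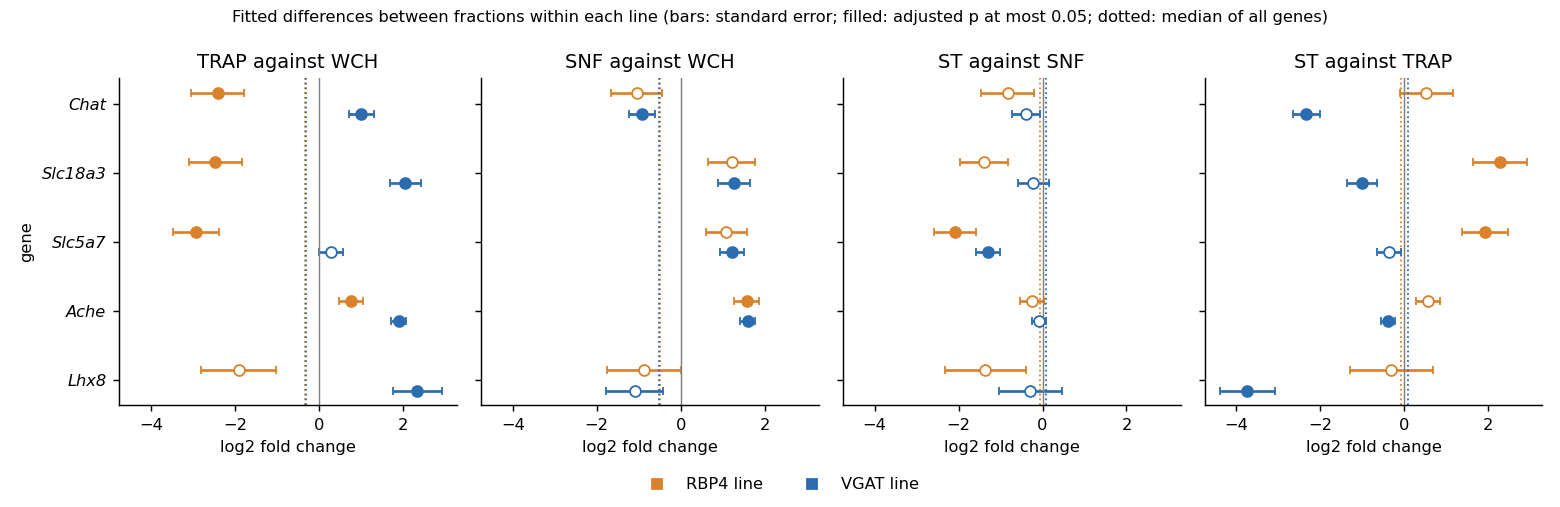
Fitted log2 fold change (x axis) of the 5 genes between fractions in the RBP4 (orange) and VGAT (blue) lines, with bars for the standard error, filled points for an adjusted p of at most 0.05 and dotted lines for the median of all genes. In TRAP against WCH the lines point in opposite directions for Chat, Slc18a3 and Lhx8, while Slc5a7 in SNF against WCH lies at 1.09 and 1.22.

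The 2 TRAP effects differed for each gene. The line difference of TRAP against WCH, VGAT less RBP4, was 4.53 ± 0.76 for Slc18a3 (adjusted p = 2.39e-05), 3.42 ± 0.68 for Chat (0.000322), 3.21 ± 0.61 for Slc5a7 (0.000152), 4.25 ± 1.08 for Lhx8 (0.00471) and 1.14 ± 0.35 for Ache (0.0239). All 5 were called, where 6.95% of all genes were called in this direction. Without RBP4 replicate 5 the differences of Chat, Slc18a3 and Slc5a7 were 4.22, 5.30 and 3.85, and without RBP4 replicate 4 that of Lhx8 was 4.93. The call of Ache was lost in 4 fits that leave out a pool, with an adjusted p of up to 0.0796, and with no genes left out (0.0741).

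The TRAP libraries were also compared directly. Each of the 5 genes was called higher in VGAT TRAP than in RBP4 TRAP, where 15.1% of all genes were called higher and 12.9% lower. For each of the 5, each VGAT library also lay above each RBP4 library. How many of all genes were without overlap was not counted. Slc18a3 differed 21.8-fold (log2 4.45 ± 0.58, adjusted p = 4.27e-07), Lhx8 20.4-fold (4.35 ± 0.83, 0.00015), Slc5a7 11.6-fold (3.53 ± 0.49, 1.23e-06) and Chat 11.5-fold (3.52 ± 0.53, 4.43e-06). Ache differed 1.92-fold (0.94 ± 0.25, 0.00429). The ratio for Slc5a7 rests on its low level in RBP4 TRAP, since in VGAT TRAP it was close to WCH. For Lhx8, with 23 counts in all of RBP4 TRAP, the standard error was the largest of these. In TRAP and ST of the RBP4 line, Lhx8 reached 0.5 cpm only in TRAP replicate 4 (0.637) and ST replicate 5 (0.689). It thus passed the filter through VGAT libraries, which favoured a higher level in VGAT, but stayed called with no filter on low counts. Single pools moved the sizes: without RBP4 replicate 5 the log2 differences were 5.42 for Slc18a3, 4.34 for Chat and 4.29 for Slc5a7, and that of Lhx8 was 3.68 without VGAT replicate 1 and 5.23 without RBP4 replicate 4. All stayed called.

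The next question was whether the mRNAs are present in synaptoneurosomes. Here the genes that act together at the terminal parted: in VGAT SNF against WCH, Slc18a3, Slc5a7 and Ache rose while Chat fell, and Lhx8 was not called. In that comparison 19.3% of all genes rose and 45.2% fell, or 4187 and 4747 genes with TMM factors against 3283 and 7680, and the median of all genes was -0.52 (-0.17 with TMM factors). Slc18a3 was at 7.04, 6.23, 0.894, 4.16 and 4.71 cpm in VGAT SNF and was higher than in WCH in 4 of 5 pools, with replicate 3 the exception. Its log2 fold change was 1.26 ± 0.38 (adjusted p = 0.00609). Replicate 3, the SNF library with the most mitochondrial counts, was the lowest of its SNF group for Chat, Slc18a3, Slc5a7 and Ache in each line. Without it the VGAT changes were -0.90 for Chat, 1.46 for Slc18a3, 1.39 for Slc5a7 and 1.70 for Ache, all called. Slc5a7 was at 15.2, 14.5, 4.92, 9.18 and 8.36 cpm, higher than in WCH in 5 of 5 pools (1.22 ± 0.28, adjusted p = 0.000701).

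VGAT SNF libraries held 42.4, 47.6, 25.2, 32.6 and 30.5 cpm of Ache, all above WCH (1.59 ± 0.18, adjusted p = 2.99e-07). Chat was at 2.41, 2.03, 1.12, 1.88 and 2.20 cpm in the same libraries, all below those of WCH. Its log2 change was -0.93 ± 0.31 (adjusted p = 0.0134), and the call was lost with TMM factors (-0.58, adjusted p = 0.112), with DESeq2 (-0.47, 0.203), with all 40 libraries in 1 fit (0.0905) and without VGAT replicate 1 (0.0592) or 2 (0.0501). In the fit that called it, Chat lay at -0.41 from the median change of all genes. Lhx8, at 3 counts or fewer in 2 of these libraries, had a log2 difference of -1.10 ± 0.67 (adjusted p = 0.157), which passed with a block for the pool (-1.21, 0.0331).

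In the RBP4 line the standard errors were larger, and the difference between the lines in SNF against WCH was not tested. In RBP4 SNF against WCH only Ache rose at the threshold (1.57 ± 0.29, adjusted p = 0.000326), with 40.6, 51.4, 26.7, 50.5 and 32.8 cpm and no overlap with WCH, and 13.4% of all genes rose (2286, against 3284 with TMM factors, when 3048 instead of 6161 fell). Slc18a3, at 5.77, 4.05, 2.05, 7.43 and 4.57 cpm, was higher than in WCH in 5 of 5 pools, with a log2 difference of 1.21 ± 0.57 (adjusted p = 0.0791). It passed with a block for the pool (1.28, 0.0199), with TMM factors, with DESeq2, with all 40 libraries in 1 fit and without RBP4 replicate 5. Slc5a7, at 10.995, 8.44, 4.11, 8.48 and 6.28 cpm, was likewise higher in 5 of 5 pools, at 1.09 ± 0.48 (adjusted p = 0.0639), and passed with TMM factors (0.0214), DESeq2, the likelihood ratio test and all 40 libraries in 1 fit, and without replicate 5, but not with the block. Chat was at 1.31, 1.27, 0.391, 2.03 and 3.34 cpm, lower than in WCH in each pool. Its log2 difference of -1.05 ± 0.60 passed only with the block (-1.23, adjusted p = 0.0372) and without RBP4 replicate 5 (-1.44, 0.0416). That of Lhx8, with 32 counts in all of RBP4 SNF, was -0.87 ± 0.87 (adjusted p = 0.415).

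A ratio within a library does not depend on how libraries are scaled. The ratio of Slc18a3 to Chat, in counts per kb, lay between 0.380 and 1.02 in RBP4 WCH and between 0.402 and 0.771 in VGAT WCH. In SNF it lay between 1.59 and 6.11 and between 0.932 and 3.58, and so above each WCH library of its line. The rise was 5.87-fold for RBP4 and 3.68-fold for VGAT. The ratio of Slc5a7 to Chat rose 5.14-fold and 3.99-fold, again without overlap and in 5 of 5 pools of each line, and that of Ache to Chat 7.32-fold and 5.44-fold. These ratios were chosen after the values had been seen, share Chat as the denominator and are given as a description, with no test. Because of the bias of reads to the 3′ end, the level of a ratio depends on the division by exon length. Its fold between fractions does not.

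**Figure D3:**
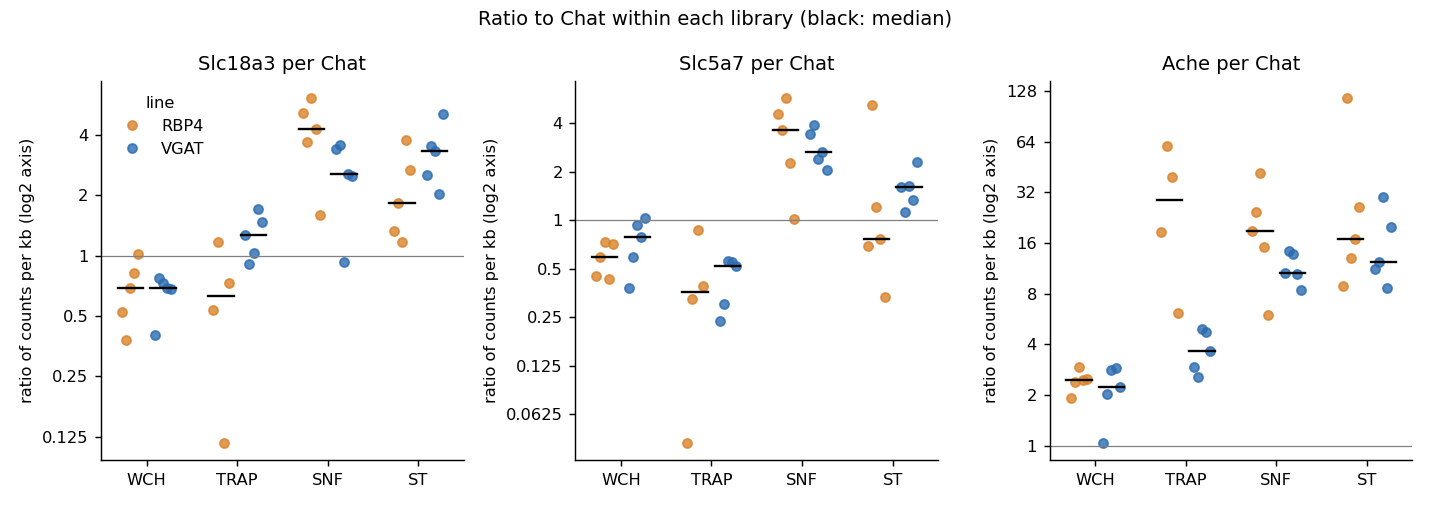
Ratio of Slc18a3, Slc5a7 and Ache to Chat (counts per kb, log2 axis) within each library of the RBP4 (orange) and VGAT (blue) lines; points are libraries, black lines medians, and RBP4 TRAP replicate 2 is missing because its Chat count was 0. In SNF all points lie above those of WCH in each line, and the medians of Slc18a3 per Chat go from 0.687 and 0.693 in WCH to 4.27 and 2.57.

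In ribosome-bound RNA of the synaptoneurosomes, Slc5a7 was the gene that fell. In ST against SNF it went from the SNF levels above to 2.13, 3.15, 1.29, 1.83 and 0.501 cpm in the RBP4 line, with no overlap, a log2 change of -2.09 ± 0.50 (adjusted p = 0.00808). In the VGAT line ST held 5.43, 3.06, 1.78, 4.91 and 6.14 cpm, below SNF in 5 of 5 pools (-1.29 ± 0.28, adjusted p = 0.00144). It was the only gene of the 5 called in either line, where 5.46% of all genes fell in RBP4 mice and 11.2% in VGAT mice (1905 fell and 2771 rose, against 2480 and 1987 with TMM factors). In the RBP4 line its call was lost without replicate 1 (adjusted p = 0.0516) or 4 (0.0597).

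Slc18a3 was not called in ST against SNF of either line. It was at 1.90, 0.518, 0.581, 4.20 and 1.88 cpm in RBP4 ST and at 3.99, 4.48, 1.69, 3.50 and 6.36 cpm in VGAT ST. In the RBP4 line each pool was lower in ST than in SNF, with a log2 difference of -1.39 ± 0.57 (adjusted p = 0.118) that passed with a block for the pool (-1.61, 0.0187), without RBP4 ST replicate 4 (-1.97, 0.0432) and with all 40 libraries in 1 fit (0.0459). In the VGAT line the difference was -0.22 ± 0.37 (adjusted p = 0.711). Chat, at 1.67, 0.329, 0.581, 1.29 and 0.814 cpm in RBP4 ST and 1.83, 1.47, 0.593, 2.01 and 1.44 cpm in VGAT ST, had differences of -0.83 ± 0.62 and -0.39 ± 0.33 that did not pass. Ache was at 24.4, 62.9, 12.4, 35.8 and 35.3 cpm in RBP4 ST and at 33.7, 30.1, 29.2, 28.6 and 47.4 cpm in VGAT ST, with differences of -0.24 ± 0.29 and -0.08 ± 0.17. Lhx8 had 16 counts in all of RBP4 ST and 27 in VGAT ST, and its differences of -1.36 ± 0.97 and -0.29 ± 0.75 did not pass either. None of the 5 was called between the lines in this effect with edgeR's test or with DESeq2, and 0% of all genes were. At an unadjusted p under 0.05 none of the 5 passed, where 393 of all genes passed upward and 109 downward. With a block for the pool Slc18a3 did pass unadjusted (1.45, edgeR unadjusted p = 0.00945).

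The study took a rise both in SNF over WCH and in ST over SNF as the mark of a locally translated mRNA. With each rise taken here at an unadjusted p under 0.05, 0 of the 5 genes were candidates in either line. The rule took 0.417% of all genes for RBP4 and 1.29% for VGAT. No member was a candidate under any of the alternatives run, DESeq2 among them. Markers of the tagged cells also overlapped widely between SNF and ST, as given below.

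Against whole-cell TRAP, 4 of the 5 genes fell in ST of the VGAT line, as did 34% of all genes, and 2 rose in the RBP4 line. Lhx8 was the most reduced, from the TRAP values above to 0.443, 0.170, 0.254, 0.669 and 0.289 cpm, a 13.3-fold fall without overlap (log2 -3.74 ± 0.66, adjusted p = 2.85e-05). Chat fell 5.03-fold without overlap (-2.33 ± 0.32, adjusted p = 1.09e-06). Slc18a3 fell 2.02-fold in 5 of 5 pools (-1.01 ± 0.36, adjusted p = 0.0154), and the call was lost without VGAT replicate 1 (0.0845) or 4 (0.0788) and with all 40 libraries in 1 fit (0.057). Ache fell by 0.38 on the log2 scale (SE 0.17, adjusted p = 0.0485), a call lost with the block for the pool (-0.38, 0.0506), with DESeq2 (0.101) and without any of VGAT replicates 1 to 4. Slc5a7 was not called (-0.36 ± 0.28, adjusted p = 0.263). The markers of the line moved as well. The 3 GABAergic markers summed to 2934 to 5096 cpm in VGAT TRAP and to 242 to 692 cpm in VGAT ST, and the 4 cortical glutamatergic markers to 43.2 to 268 cpm and to 532 to 825 cpm. Their part in the falls was not tested.

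In the RBP4 line Slc18a3 and Slc5a7 were higher in ST than in TRAP, at 4.87-fold (2.28 ± 0.64, adjusted p = 0.00419) and 3.80-fold (1.93 ± 0.55, 0.00477), where 26% of all genes were higher. The call of Slc18a3 was lost without RBP4 replicate 4 (1.402, adjusted p = 0.0767), though not without its ST library alone (1.70, 0.0274), and that of Slc5a7 without replicate 2 (1.35, 0.0654). Without RBP4 replicate 5 the log2 changes were larger, at 3.25 and 2.92. Chat (0.52 ± 0.64), Ache (0.57 ± 0.29, adjusted p = 0.0948, called with DESeq2 at 0.0338) and Lhx8 (-0.31 ± 0.99) were not called. Slc18a3 and Slc5a7 started from very few counts, 34 and 45 in all of RBP4 TRAP. The difference between the lines in ST against TRAP was called for Slc18a3 (-3.31 ± 0.74, adjusted p = 0.00264), Chat (-2.86 ± 0.73, 0.00789) and Slc5a7 (-2.29 ± 0.64, 0.0169), where 5.02% of all genes were called in this direction. It was not called for Lhx8 (-3.41 ± 1.29, 0.0884) or Ache (-0.96 ± 0.35, 0.0759), which passed with DESeq2 (0.0226 and 0.0237). For Slc5a7 the call was lost without RBP4 replicate 1 (0.0591) or 2 (0.0768). Without RBP4 replicate 5 the differences were -4.27 for Slc18a3, -3.72 for Chat and -3.28 for Slc5a7, while that of Slc18a3 was -2.42 without RBP4 replicate 4 and -2.73 without its ST library alone.

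In ST and SNF no gene of the set was called between the lines. In ST 0 of the 5 genes were called between the lines with edgeR's test and 0 with DESeq2, where 0.325% of all genes were (45 higher and 10 lower, against 36 and 15 with TMM factors and 61 and 77 with DESeq2), and 2 passed at an unadjusted p under 0.05. These were Slc5a7, with a log2 difference of 1.25 and a 95% interval from 0.40 to 2.09, and Slc18a3, with 1.14 (0.17 to 2.11). The interval for Ache ran from -0.50 to 0.46. In SNF, which holds no tag selection, 0 of 5 were called with edgeR's test or DESeq2 and 0 passed unadjusted, where 0.0169% of all genes were called. For Chat in SNF the interval ran from -0.75 to 1.18. In VGAT mice the 3 GABAergic markers summed to 238 to 643 cpm in SNF and to 242 to 692 cpm in ST. The 4 cortical glutamatergic markers summed to 828 to 1312 and to 532 to 825 cpm. In RBP4 mice the glutamatergic sum was 756 to 1140 cpm in SNF and 656 to 1231 cpm in ST, and the GABAergic sum 242 to 498 and 195 to 319 cpm. Markers of the tagged cells thus overlapped widely between SNF and ST, and their part in these results was not tested.

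Markers of glia moved with these fractions. The summed level of the oligodendrocyte markers Mbp and Mobp lay between 22743 and 35759 cpm in RBP4 ST and between 24534 and 47181 cpm in VGAT ST, and between 161 and 3511 cpm in TRAP of either line. That of 4 astrocyte markers lay between 6684 and 19220 cpm in SNF of either line and between 1665 and 3835 cpm in WCH. Their part in the differences of the cholinergic genes between fractions was not tested. In VGAT TRAP, where Chat, Slc18a3, Ache and Lhx8 were higher than in WCH, the oligodendrocyte sum was between 161 and 806 cpm, below the 1276 to 1887 cpm of VGAT WCH.

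The pools of the VGAT line varied together in several of these genes. Replicate 1 was the highest of the 5 VGAT TRAP libraries for Chat (11.1 cpm), Slc18a3 (12.1), Ache (53.5) and Lhx8 (12.4), but not for Slc5a7 (4.85), and the highest of VGAT WCH for Chat and Lhx8. It also held the most Isl1 (34.7 cpm, against 13.4 to 20.1), Gbx1 (3.32, against 0.370 to 1.31) and Nkx2-1 (3.57, against 1.59 to 2.02). Of the other genes on the list of cholinergic identity below, Lhx6, Zic1, Ecel1 and Ngfr were also highest in this library. Zic4 and Gbx2 were not, and Slc17a8 was lowest there (2.23 cpm, against 3.89 to 7.03). Without this pool Chat, Slc18a3, Ache and Lhx8 were still called in TRAP against WCH, with log2 changes of 1.15, 1.95, 1.81 and 2.13.

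Other genes of acetylcholine signalling were counted from 3 lists. Of 21 acetylcholine receptor subunits 16 could be tested in VGAT TRAP against WCH, and 2 rose and 6 fell, beside 21% and 41.8% of all genes, with a median log2 change of -0.42 beside -0.31. Those that could be named by level and size were the muscarinic receptors Chrm1 (-0.88 ± 0.15) and Chrm3 (-0.65 ± 0.19), the nicotinic subunits Chrnb3 (-1.26 ± 0.34) and Chrnb1 (-0.94 ± 0.31), and, among those that rose, Chrna2 (1.07 ± 0.43). The other that rose, Chrnb4 (1.47 ± 0.58), lay under 1 cpm and is named after its values were seen. Calls of Chrm3 and Chrnb1 were lost with TMM factors (adjusted p = 0.0594 and 0.0591), and that of Chrna2 without any of 4 pools and with all 40 libraries in 1 fit. Between the TRAP libraries, 4 of 17 were higher and 2 lower in VGAT, beside 15.1% and 12.9% of all genes. Chrm2, a muscarinic receptor common on cholinergic and inhibitory neurons, was at 14.9 ± 2.21 cpm in VGAT TRAP and 5.38 ± 1.57 in RBP4 TRAP (SD, n = 5; log2 1.47, adjusted p = 3.14e-06), but fell in VGAT TRAP against WCH (-0.42 ± 0.17, adjusted p = 0.0343), where WCH held 19.9 cpm. The nicotinic subunits Chrna5 (2.44 ± 0.36) and Chrna2 (2.31 ± 0.59), and Chrnb4 (2.93 ± 0.79), were also higher, and Chrm1 (-0.88 ± 0.17) and Chrna1 (-1.09 ± 0.31) lower.

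In SNF the receptors rose or were not called. Of 17 tested in the RBP4 line 9 rose and 0 fell against WCH, where 13.4% of all genes rose and 36.1% fell. Of 16 in the VGAT line 11 rose and 0 fell, where 19.3% rose and 45.2% fell. The medians were 1.05 and 1.01 beside -0.50 and -0.52 for all genes. In ST against SNF 0 receptors rose in either line, while 4 of 17 fell in the RBP4 line and 7 of 16 in the VGAT line. Of all genes, 5.46% and 11.2% fell. In WCH 0 of 17 differed between the lines.

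The 14 accessory genes, which handle choline, anchor cholinesterase or help receptors assemble, went both ways: 6 rose and 6 fell in VGAT TRAP against WCH, beside 21% and 41.8% of all genes, so that the share that fell was near that of all genes. Those that rose most were the Ly6 family genes Ly6h (1.62 ± 0.18), Lypd6 (1.4004 ± 0.19) and Lypd6b (1.19 ± 0.15), whose products bind nicotinic receptors, and Prima1, the membrane anchor of Ache (0.79 ± 0.30), whose call was lost without VGAT replicate 1, 3 or 4 and with all 40 libraries in 1 fit. Butyrylcholinesterase (Bche, -2.07 ± 0.46), the choline transporter-like genes Slc44a1 (-1.87 ± 0.16) and Slc44a2 (-1.09 ± 0.16) and choline kinase (Chka, -1.3998 ± 0.19) fell most. Between the TRAP libraries 3 of 14 were higher in VGAT and 0 lower, beside 15.1% and 12.9% of all genes. Prima1 was at 1.63 ± 0.269 cpm in VGAT TRAP and 0.146 ± 0.0827 in RBP4 TRAP (log2 3.42 ± 0.42, adjusted p = 1.93e-07), Lypd6 at 87.1 ± 12.1 and 13.5 ± 4.37 cpm (2.69 ± 0.22) and Lypd6b at 52.7 ± 7.12 and 15.9 ± 2.04 cpm (1.73 ± 0.19). In SNF against WCH 8 of the 14 rose and 3 fell in the RBP4 line (13.4% and 36.1% of all genes), and 10 rose and 2 fell in the VGAT line (19.3% and 45.2%). In ST against SNF 0 rose and 5 fell in the RBP4 line (5.64% and 5.46%), and 1 rose and 6 fell in the VGAT line (16.3% and 11.2%).

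Of 10 genes of forebrain cholinergic identity, 9 passed the filter between the TRAP libraries and were called higher in VGAT, beside 15.1% of all genes. Nkx2-1 and Gbx1 passed it only through VGAT libraries, so that their direction was fixed by the filter and the count is no measure of the list. Several of them also mark other GABAergic neurons. Nkx2-1, the regulator of the embryonic ganglionic eminence from which these cells come, was at 2.19 ± 0.787 cpm in VGAT TRAP and at 0 to 0.0519 cpm in RBP4 TRAP (adjusted p = 6.53e-08), where all 5 libraries held 2 counts together. Lhx6, which marks cortical interneurons as well, was at 121 ± 25.4 and 4.02 ± 1.49 cpm (4.92 ± 0.28), Isl1 at 20.0 ± 8.60 and 0.690 ± 0.769 cpm (4.89 ± 0.55) and Gbx1 at 1.34 ± 1.15 and 0.0770 ± 0.0855 cpm (4.04 ± 0.70). Against WCH, 5 of 9 rose in VGAT TRAP and 0 fell (21% and 41.8% of all genes), among them Gbx1 (3.04 ± 0.68), Lhx6 (2.52 ± 0.19), Isl1 (2.51 ± 0.31) and Nkx2-1 (2.42 ± 0.50). In RBP4 TRAP 6 of 8 fell and 0 rose (31.5% and 8.37% of all genes).

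**Figure D4:**
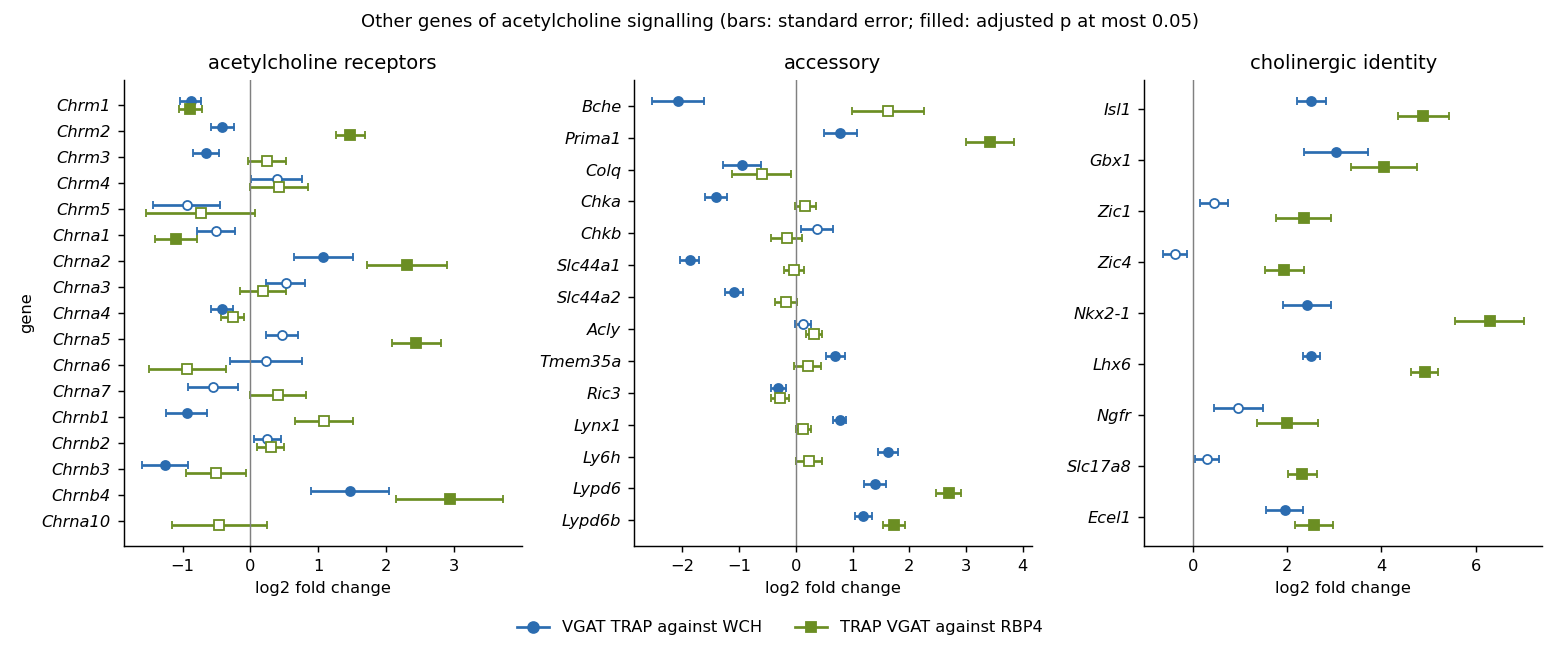
Fitted log2 fold change (x axis) of the tested receptor, accessory and identity genes for VGAT TRAP against WCH (blue circles) and VGAT against RBP4 in TRAP (green squares), with bars for the standard error and filled points for an adjusted p of at most 0.05. All 9 squares of the identity genes are filled and lie above 0. The filter on low counts fixed the direction of some of them, so that this count is no measure of the list. The receptors lie on both sides.

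Other cell types of the VGAT line that can hold acetylcholine genes were also present in VGAT TRAP. The 3 markers of bipolar cortical interneurons summed to 639 to 835 cpm in VGAT TRAP, 90.0 to 115 cpm in VGAT WCH and 24.7 to 62.7 cpm in RBP4 TRAP. The 7 markers of striatal projection neurons summed to 3493 to 5264 cpm in VGAT TRAP and to 130 to 306 cpm in RBP4 TRAP. Of the 3 medial habenula markers, Pou4f1 was at 0.424 cpm in VGAT TRAP and 1.97 cpm in WCH, Gpr151 at 1.45 and 0.829 cpm, and Tac2, which cortical interneurons also express, at 111 and 12.4 cpm. Their part in the levels of the 5 genes was not tested.

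The genes whose pattern over the 40 libraries was most like that of each member differed by member, as a description of log2(cpm + 1) among 14017 genes. The points share fractions, lines and, within a replicate, the pool. Nearest to Chat were the GABA-synthesizing enzyme Gad2 (Pearson r = 0.94), the striatal phosphodiesterase Pde10a (0.94) and Rgs9 (0.93). Nearest to Slc18a3 were the neuropeptide genes Tac1 and Penk (0.90 each) and Slc10a4 (0.89), a vesicular protein of cholinergic and monoaminergic neurons. Slc10a4 was at 5.21 and 5.99 cpm in RBP4 and VGAT SNF, above the 2.61 and 2.21 cpm of WCH.

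Those of Slc5a7 were Adra1a, Kit and Alcam (0.94, 0.94 and 0.93), those of Ache were Ly6h, Syt3 and Grina (0.94, 0.94 and 0.91), and those of Lhx8 were Pbx3, Isl1 and Ppp1r1b (0.89, 0.88 and 0.87). Alcam, like Slc5a7, was higher in SNF (498 and 590 cpm) than in WCH (248 and 262 cpm) and ST (166 and 259 cpm). Among the members themselves Chat and Lhx8 were the most alike (r = 0.81, Spearman's rho = 0.80) and Chat and Ache the least (-0.04 and -0.06). Slc18a3 was more like Slc5a7 (0.76) than like Chat (0.64), with which it shares a locus.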

How the data were processed

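RNA-seq counts of 40 libraries were used, with line, fraction and replicate from the labels. The authors used STAR 2.0.4b for alignment and Subread featureCounts 1.4.5 to count single-position reads on each gene, and the counts were deposited without normalization. The deposited CPM values are the authors' counts scaled to the library total, and the deposited RPKM values divide these by gene length in kb; both served only to check the counts. Positions of the 5 genes are those given with the deposited counts (GRCm38). GENCODE M21 has the same positions for Slc18a3 and Ache. It ends Chat at 32465989 and Lhx8 at 154330659, and starts Slc5a7 at 54273590.

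Here cpm was recomputed with 390 genes set aside (mitochondrial genes, rRNA and tRNA), with no further factor. Tests were those of edgeR 4.0.16 in R 4.3.3 (quasi-likelihood, group as the only variable, Benjamini-Hochberg, called at an adjusted p of at most 0.05). Fits within a line took its 20 libraries, and genes that reached 0.5 cpm in 3 or more of them. Comparisons of the lines took 30 libraries (all but SNF), with that limit on TRAP and ST, and those with SNF, or for TRAP against WCH, all 40. Standard errors of edgeR's log2 fold changes are the size of the change divided by the square root of the test's F. Intervals are normal 95% intervals from these errors, without the test's degrees of freedom, and can be too narrow. For Ache in RBP4 ST against TRAP the interval ran from 0.0095 to 1.13, while edgeR's unadjusted p was 0.058. Other steps used Python 3.11.15, matplotlib 3.10.9, pandas 2.3.3, scipy 1.17.1 and numpy 2.4.6.

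The members and lists were chosen with earlier results of these data known. All members are named; of each list, up to 4 called genes per direction with a mean of at least 1 cpm and the largest change in VGAT TRAP against WCH and in TRAP between lines; and the 3 genes most alike to each member. Of the lists of identity and marker genes, 3 genes are not reported here and enter no count or sum. Values of Gad1, Slc17a7, Slc32a1 and the identity genes by library, and the ratios to Chat, were chosen after the values had been seen.

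The 4 fractions of a replicate come from 1 pool. Deviations from the group means correlated on average at 0.211 (RBP4) and 0.242 (VGAT) for fractions of the same pool, and at -0.0527 and -0.0601 for different pools. Since the mean of each group was taken out, the values for different pools follow largely from those for the same pool and are no separate contrast. Between lines equal numbers pair no pools. No 2 libraries were identical. Alternatives were TMM factors, DESeq2 1.42.0, the likelihood ratio test, no filter, no genes left out, the replicate block, each pool left out, RBP4 ST replicate 4 left out and, added after the data had been seen, all 40 libraries in 1 fit. The tests were first tried on simulated data.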

Additional observations from a re-analysis of the deposited data

Results flagged for a closer look

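Ache in VGAT ST replicate 5 was at 47.4 cpm, far from the other 4 libraries of its group (28.6 to 33.7 cpm). It was the only one of 40 gene and group combinations with a sample so far from the rest, and chance alone gives about 1 in 20.

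Effects that differed between the lines by a test of the difference itself were, for TRAP against WCH (VGAT less RBP4, log2), 3.42 for Chat, 4.53 for Slc18a3, 3.21 for Slc5a7, 1.14 for Ache and 4.25 for Lhx8. For ST against TRAP they were -2.86 for Chat, -3.31 for Slc18a3 and -2.29 for Slc5a7. The TRAP libraries enter both sets, so that the sets are not independent of each other.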

How the results depend on the processing

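All 5 genes stayed called between the TRAP libraries under every alternative run, and 4 of 5 in VGAT TRAP against WCH under all but the fit of all 40 libraries, where 3 were. The number called in RBP4 SNF against WCH was 1, but 3 with TMM factors, DESeq2, the replicate block or all 40 libraries in 1 fit and 2 with the likelihood ratio test. In RBP4 ST against SNF it was 1, but 2 with the replicate block or all 40 libraries in 1 fit. In VGAT ST against TRAP it was 4, but 2 with all 40 libraries in 1 fit, and for the line difference of ST against TRAP it was 3, but 5 with DESeq2. Leaving out a pool, or RBP4 ST replicate 4, gave between 1 and 4 for RBP4 SNF against WCH, 0 and 2 for RBP4 ST against SNF, 1 and 3 for RBP4 ST against TRAP, 2 and 4 for VGAT ST against TRAP, and 2 and 4 for the line difference of ST against TRAP. The causes were not tested. With a block for the pool the calls of Lhx8 (RBP4 TRAP against WCH and VGAT SNF against WCH), Chat and Slc18a3 (RBP4 SNF against WCH), Slc18a3 (RBP4 ST against SNF) and Ache (VGAT ST against TRAP) changed, as given above, and no other call of a member did.

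Signs turned only for differences near 0 that were not called: Ache in VGAT ST against SNF with no genes left out (0.13), and, with a replicate block between the lines, Slc18a3 in WCH (0.060) and Ache in ST (0.020). Without a pool the ranges were, in VGAT over RBP4, -0.23 to 0.225 for Chat, -0.27 to 0.12 for Slc18a3 and -0.36 to 0.44 for Lhx8 in WCH, -0.018 to 0.62 for Chat, -0.24 to 0.21 for Slc18a3 and -0.61 to 0.14 for Lhx8 in SNF, and -0.23 to 0.32 for Ache in ST. For RBP4 ST against TRAP Lhx8 ranged from -1.97 to 0.49, for VGAT ST against SNF Ache from -0.29 to 0.085 and Lhx8 from -0.86 to 0.086, and for the line difference of ST against SNF Ache from -0.043 to 0.40. Depth limits Lhx8 most, with 16 to 32 counts in each of RBP4 TRAP, RBP4 ST, RBP4 SNF, VGAT SNF and VGAT ST summed over 5 libraries.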
